A study of Mus musculus with 9 samples.

Results

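The alcohol, aldehyde, retinol and aldo-keto dehydrogenases are the liver enzymes whose gene symbols begin with Adh, Aldh, Akr, Rdh or Dhrs followed by a digit. They were taken from the array as all probe sets annotated to exactly 1 such gene, which gave 79 probe sets of 53 genes out of 22690 probe sets. Of these, 62 probe sets of 44 genes passed the filter on dim signals and were tested among 15838 probe sets. The arrays measured liver RNA in 3 groups of 3 samples: NT-Co, from mice with no tumour given vehicle, T-Co, from mice with a tumour given vehicle, and T-TSU, from mice with a tumour given TSU68. The tumour was TK-4, a human colon cancer placed in the wall of the cecum of athymic BALB/c nu/nu males at 6 weeks of age. TSU68, an oral inhibitor of receptor tyrosine kinases, was given at 400 mg/kg per day from day 7 after implantation for 1 week. For the NT-Co mice the sources used here give no strain, sex or age of their own, and for all groups no feeding state and no hour of collection. A sham operation of those mice is not described either, so tumour and implantation cannot be told apart. The labels number the samples but do not say that each came from its own animal, and p-values therefore reflect only how these samples vary.

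These enzymes move hydrogen between alcohols, aldehydes or ketones and the cofactors NAD and NADP. In liver they clear ethanol and dietary or lipid-derived aldehydes, and they reduce steroids and bile acid intermediates. They also interconvert vitamin A forms: retinol is oxidised to retinaldehyde by medium-chain alcohol dehydrogenases and short-chain retinol dehydrogenases, and retinaldehyde is then oxidised irreversibly to retinoic acid by Aldh1a enzymes. Retinaldehyde reductases such as Dhrs3 run the reverse step.

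Promoter sequence is shown for Adh4 and Rdh9, the genes with the largest called fall and rise by their brightest probe set, and for Rdh16f2 and Rdh16, which lie in the same gene cluster as Rdh9. Each is the part of the RefSeq promoter entry, which begins 250 bases before the start it lists, that lies before the outermost start of the gene, so those of Adh4 (209 bases) and Rdh16 (187 bases) are shorter. They run 5′ to 3′, in lower case, and capitals mark the hexamer AGGTCA, the core that nuclear receptors recognise, on either strand.
Adh4 (GRCm38.p6, chr3:138415247-138415455, + strand): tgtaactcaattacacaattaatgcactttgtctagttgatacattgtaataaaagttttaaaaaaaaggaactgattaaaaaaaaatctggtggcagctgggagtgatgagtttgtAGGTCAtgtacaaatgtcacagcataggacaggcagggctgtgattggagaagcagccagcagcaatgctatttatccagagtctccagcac
Rdh9 (GRCm38.p6, chr10:127776155-127776404, + strand): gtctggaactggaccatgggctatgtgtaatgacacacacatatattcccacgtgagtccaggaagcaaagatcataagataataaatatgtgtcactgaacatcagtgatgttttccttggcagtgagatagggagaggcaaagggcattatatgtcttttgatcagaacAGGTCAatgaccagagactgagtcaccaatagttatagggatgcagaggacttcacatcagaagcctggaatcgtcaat
Rdh16f2 (GRCm38.p6, chr10:127866226-127866475, + strand): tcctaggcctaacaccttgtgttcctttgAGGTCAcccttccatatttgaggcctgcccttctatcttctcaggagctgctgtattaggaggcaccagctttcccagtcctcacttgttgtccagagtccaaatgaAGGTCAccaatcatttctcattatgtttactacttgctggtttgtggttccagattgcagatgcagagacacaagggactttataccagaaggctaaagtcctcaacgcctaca
Rdh16 (GRCm38.p6, chr10:127800903-127801089, + strand): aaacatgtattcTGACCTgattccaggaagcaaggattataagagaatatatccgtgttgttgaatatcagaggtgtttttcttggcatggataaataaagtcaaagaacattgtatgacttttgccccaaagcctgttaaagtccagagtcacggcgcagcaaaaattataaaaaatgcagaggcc
The hexamer starts 92 bases before the start of Adh4, 79 before Rdh9, and 221 and 114 before Rdh16f2, and lies in reverse 175 bases before Rdh16. RefSeq promoters were found for 46 of the 53 genes. AGGTCA occurred on either strand in the 250 bases before a listed start of 12 of these 46 (26.1%), against 15.76% of 27025 genes in the RefSeq table. Of the 8 genes called in a comparison that had an entry, 3 held it: Adh4, Rdh9 and Rdh16f2. Akr1c20 has no entry. The other motifs searched, also on both strands, were the antioxidant response element TGACNNNGC, a STAT site TTCNNNGAA, a D-box TTATGTAA, a C/EBP site TTGCNNAA and a TATA box TATAAA. They occurred in 4, 4, 1, 7 and 8 of the 46 genes, and in 11.52%, 8.13%, 0.98%, 10.84% and 14.33% of all genes in that order. These are letter matches in short windows and not binding sites.

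Comparing T-Co with NT-Co asks how these enzymes differ in the liver of mice with a tumour in another organ. Probe sets of 9 of the 44 tested genes were called (limma, Benjamini-Hochberg adjusted p under 0.05), 7 genes lower and 2 higher. By the brightest probe set alone, 8 genes were called, 6 lower and 2 higher, without Akr1a1. Adh4 and Akr1c20 fell most among them, and Rdh9 and Rdh16f2 rose. Adh1, Adh5, Aldh2 and Rdh7 were among the genes not called. By probe set, 8 of 62 fell, or 12.9%, both of Akr1c20 among them, where 2.38% of all probe sets tested were called lower. Another 2 rose, or 3.23%, where 4.16% of all were called higher. The groups did not overlap for 17 of the 62 with T-Co lower (12.5% of all probe sets) and for 3 with T-Co higher (14.4% of all). The median log2 difference of the 62 was -0.12, against 0.01 for all probe sets tested. Their median SE was 0.20, against 0.24 for all, and the part of this precision in the shares called was not tested.

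Whole-liver measures were set beside these groups. Summed intensity of 12 hepatocyte markers, all above the filter, was 287090 to 308860 in NT-Co, 355100 to 356270 in T-Co and 291350 to 313510 in T-TSU. Of these 12, 4 were called higher in T-Co, or 33.3%, where 4.16% of all probe sets were. Their differences were above 0 for 11 and below 0 for 1. Summed intensity of 14 stellate cell markers, the cells that store retinoids, was 8809 to 9898, 7429 to 7747 and 8021 to 9502 in the same order, with Col1a1, Hand2 and Vipr1 below the filter. Of the 11 tested stellate markers, 2 fell in T-Co (Lum and Col3a1), or 18.2%, where 2.38% of all probe sets were called lower. Differences of 9 were below 0 and of 2 above 0. That of 13 macrophage markers was 9888 to 13832, 13452 to 19433 and 6161 to 12955, and that of 12 endothelial markers 2813 to 3769, 3376 to 5192 and 2298 to 3308. Sums of 4 erythroid markers were 2074 to 2460, 383 to 1108 and 1208 to 2260, with T-Co below both other groups, and sums of 10 neutrophil markers were 685 to 1111, 1004 to 2384 and 614 to 1004. Hba-a1 and Epb42 of the erythroid list were below the filter, as were Camp, Ltf, Cxcr2 and Mmp8 of the neutrophil list. Of the 2 tested erythroid markers, 1 was called lower in T-Co (-1.84), and the other differed by -0.15. Cholangiocyte and lymphocyte sums overlapped between all groups, with 4 of 6 and 6 of 10 markers below the filter. For RNA integrity, the 3′ over 5′ signal of beta-actin was 2.72 ± 0.44 (SD, n = 3), 1.98 ± 0.11 and 2.02 ± 0.20, while that of Gapdh was level at 0.765 ± 0.031, 0.765 ± 0.039 and 0.767 ± 0.075. Their part in the results below was not tested, and in whole liver fewer cells of a type and less RNA per cell cannot be told apart.

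**Figure D1:**
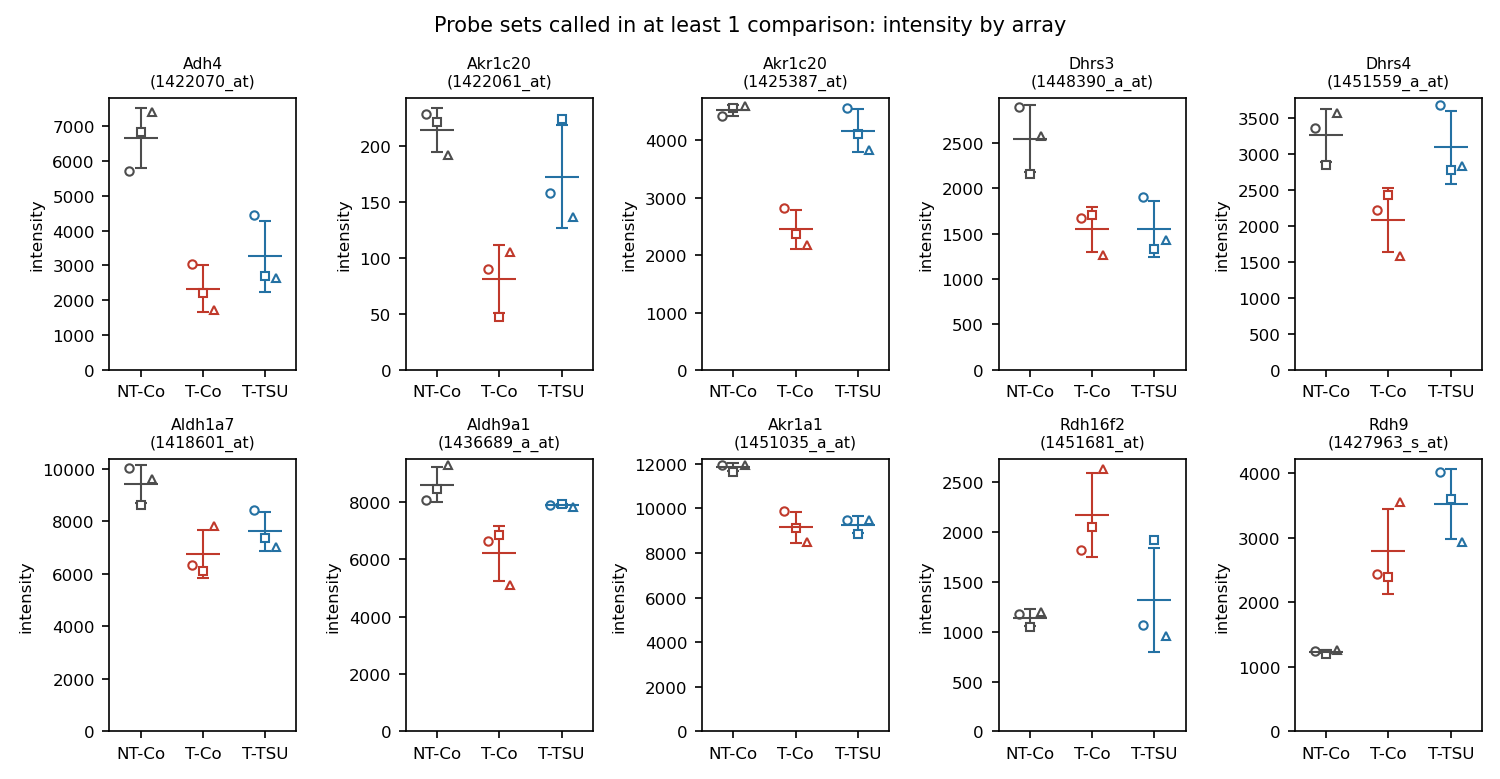
Intensity (linear scale from 0) of the 10 probe sets called between T-Co and NT-Co or between T-TSU and NT-Co, in each array; open symbols are arrays, horizontal lines group means and bars ± SD (n = 3). The NT-Co arrays of Rdh9 lie between 1204 and 1255, below every T-Co and T-TSU array, and those of Adh4 lie above every T-Co and T-TSU array.

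Among alcohol dehydrogenases, 1 of 4 tested genes changed. Adh4 (probe set 1422070_at), the class II enzyme that oxidises retinol and longer alcohols, read 5717, 6824 and 7417 in the NT-Co arrays, and 3051, 2221 and 1727 in T-Co. It read 4445, 2692 and 2636 in T-TSU. All 6 arrays of tumour-bearing mice were below all NT-Co arrays, while T-TSU and T-Co overlapped. Adh4 fell by 1.54 ± 0.23 on the log2 scale (SE) in T-Co, 2.91-fold, with adjusted p = 0.00248, and the call held under every alternative and with any array left out (adjusted p from 0.00115 to 0.0265). Adh5 is the class III enzyme that handles formaldehyde bound to glutathione, and its gene comes next after Adh4 on chromosome 3. It read 9774 ± 247 in NT-Co and 9830 ± 225 in T-Co. Its difference was 0.01 ± 0.09, with a 95% interval of -0.19 to 0.21. Adh1, the class I enzyme that oxidises ethanol, differed by -0.08 ± 0.10 (interval -0.29 to 0.13). Adh7, the class IV enzyme of stomach and other epithelia, was dim, at 91.0 ± 13.5 in NT-Co, and was not called.

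Retinol and retinaldehyde short-chain enzymes moved in both directions, with 2 of 10 tested genes higher and 1 lower. Rdh9 (1427963_s_at), which acts on cis-retinols and hydroxysteroids in mice, read 1244, 1204 and 1255 in NT-Co. It read 2437, 2386 and 3553 in T-Co, and 4023, 3604 and 2936 in T-TSU. Every array of a tumour-bearing mouse was above every NT-Co array. Rdh9 rose by 1.15 ± 0.17 in T-Co, 2.22-fold (adjusted p = 0.00231), and this call too held under every alternative and with any array left out (0.00176 to 0.0245). The suffix of this probe set marks one that can detect several related transcripts, so signal from other Rdh genes of the cluster cannot be told apart.

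Rdh16f2 (1451681_at), a gene of the same cluster, read 1180, 1043 and 1195 in NT-Co. The T-Co arrays read 1818, 2051 and 2635, and the T-TSU arrays 1071, 1922 and 960. Its T-Co arrays were above all NT-Co arrays, but 2 of the 3 T-TSU arrays were in or below the NT-Co range. It rose by 0.91 ± 0.23 in T-Co (adjusted p = 0.0363), and the call was lost with no intensity trend (0.104) and without any 1 of 5 arrays, at most 0.108 without T-Co replicate 13. Rdh7, the last gene of that cluster, differed by 0.03 ± 0.09 (interval -0.18 to 0.23), and Rdh16, between Rdh9 and Rdh16f2, by 0.25 ± 0.34. Rdh16 read 1097 and 1181 in T-Co replicates 9 and 10 but 463 in replicate 13, so its T-Co arrays spanned the NT-Co range of 636 to 782.

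Dhrs3 (1448390_a_at), which reduces retinaldehyde to retinol, read 2893, 2158 and 2570 in NT-Co. It read 1671, 1708 and 1265 in T-Co, and 1905, 1327 and 1426 in T-TSU. All arrays of tumour-bearing mice were below those without tumour. It fell by 0.71 ± 0.18 in T-Co (adjusted p = 0.0322), and the call was lost with no intensity trend (0.0959) and without any 1 of 3 arrays, at most 0.134 when NT-Co replicate 8 was left out. The stellate markers Lum (-0.70 ± 0.16) and Col3a1 (-1.03 ± 0.20) fell in T-Co as well, while Lrat, which esterifies retinol for storage, was dim and differed by 0.88 ± 0.42, and Des by 1.05 ± 0.60, neither called. Rdh10, which oxidises retinol, differed by -0.11 ± 0.15. Rdh5, Rdh13 and Rdh14 were not called either.

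**Figure D2:**
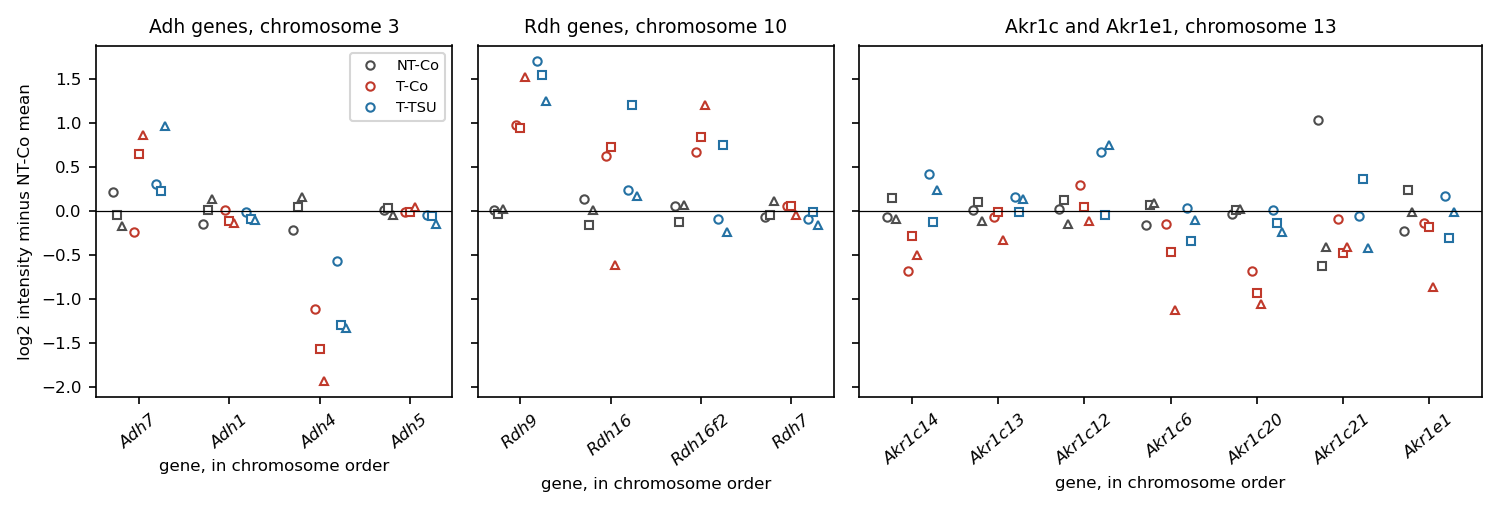
Log2 intensity of each array minus the NT-Co mean (vertical axis) for the tested genes of 3 gene clusters, in chromosome order; open symbols are arrays, with grey for NT-Co, red for T-Co and blue for T-TSU. Adh4 departs from 0 in all 6 arrays of tumour-bearing mice while Adh5 and Adh1 stay near 0, and Rdh9 is above 0 in the same 6 arrays.

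Cluster neighbours were measured on the same arrays. The change of each called cluster gene was therefore also set against that of an adjacent tested gene, by chromosome order. Akr1c20 lies between Akr1c6 and Akr1c21, both tested, and only Akr1c6 was used. The genes were chosen after their values were seen, so these tests only describe the pairs. The log2 ratio of Adh4 to Adh5 changed by -1.55 in T-Co (arrays from -1.98 to -1.11, NT-Co arrays from -0.22 to 0.21). That of Rdh9 to Rdh16 changed by 0.90 (0.22 to 2.13), but by 0.29 without T-Co replicate 13, in which Rdh16 was lowest. That of Rdh16f2 to Rdh7 changed by 0.88 (0.61 to 1.25). Each gave a two-sided exact permutation p of 0.1, the smallest that 3 arrays against 3 allow, and 0.16 adjusted over 8 such tests. For Akr1c20 against Akr1c6 the change was -0.31 (-0.54 to 0.07) and the groups overlapped (exact permutation p = 0.3, adjusted 0.4). Without replicate 13 it was -0.50. In T-TSU the ratios changed by -0.98 for Adh4 to Adh5 and by 0.96 for Rdh9 to Rdh16 (exact permutation p = 0.1 for each, adjusted 0.16). They changed by 0.23 for Rdh16f2 to Rdh7 (exact permutation p = 0.7, adjusted 0.8) and by 0.02 for Akr1c20 to Akr1c6 (0.9, adjusted 0.9).

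Among the steroid-reducing aldo-keto enzymes 1 of 7 tested genes was called. Akr1c20, of the subfamily that reduces steroid ketones, read 4421, 4563 and 4592 with its brighter probe set (1425387_at) in NT-Co. It read 2826, 2363 and 2170 in T-Co, and 4572, 4115 and 3833 in T-TSU. The T-Co arrays were below all others, and the T-TSU arrays overlapped with NT-Co. It fell by 0.89 ± 0.13 in T-Co, 1.85-fold (adjusted p = 0.00192, and 0.00149 to 0.0228 over the alternatives and arrays left out). Its other probe set (1422061_at) fell as well, by 1.38 ± 0.29 (adjusted p = 0.0163), from 214 ± 19.6 to 80.8 ± 30.4. That second call was lost without NT-Co replicate 8 (0.0683) or NT-Co replicate 10.

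Akr1c14, a 3-alpha-hydroxysteroid dehydrogenase, read 5885, 6843 and 5773 in NT-Co, and 3827, 5037 and 4348 in T-Co. It read 8255, 5643 and 7238 in T-TSU. Its T-Co arrays were the lowest of the 9, but the difference of -0.49 ± 0.15 was not called (adjusted p = 0.0785). Akr1c6, a type of 17-beta-hydroxysteroid dehydrogenase, differed by -0.58 ± 0.20 (0.111), with the lowest array, 9079, in T-Co replicate 13. Akr1d1, the 5-beta-reductase of bile acid synthesis, differed by 0.61 ± 0.22 with 1 probe set (0.127) and by -0.25 ± 0.30 with the other, so its direction is not settled. Without T-Co replicate 10 the former was called (0.87 ± 0.18, adjusted p = 0.0218). Akr1c12, Akr1c13 and Akr1c21 were not called.

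Of the other called enzymes, Aldh1a7, Aldh9a1 and Dhrs4 fell by 0.48 to 0.66 on the log2 scale. Aldh1a7 (1418601_at), a close relative of Aldh1a1, read 10021, 8617 and 9613 in NT-Co and 6343, 6112 and 7810 in T-Co, without overlap. It fell by 0.48 ± 0.12 (adjusted p = 0.0381). Aldh9a1 (1436689_a_at), which oxidises an aldehyde of carnitine synthesis, read 8060, 8452 and 9267 in NT-Co, against 6649, 6850 and 5098 in T-Co. It fell by 0.48 ± 0.12 (0.0385), and its other probe set differed by -0.41 ± 0.17 (0.168). Dhrs4 (1451559_a_at), a peroxisomal carbonyl reductase, read 3361, 2855 and 3573 in NT-Co and 2227, 2436 and 1585 in T-Co. It fell by 0.66 ± 0.17 (0.0426), and its other probe set differed by -0.22 ± 0.17 (0.502).

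Akr1a1, an aldehyde reductase that also serves vitamin C synthesis in mice, had 4 probe sets, all lower in T-Co without overlap and by 0.24 to 0.38. One of them, 1451035_a_at, was called, having read 11938, 11649 and 11947 in NT-Co and 9864, 9104 and 8469 in T-Co (-0.38 ± 0.10, adjusted p = 0.0390). The brightest, 1430123_a_at, was not called (-0.24 ± 0.09, 0.136), nor were 1430124_x_at (0.0973) and 1435011_x_at (0.116). The calls of Aldh1a7, Aldh9a1, Dhrs4 and Akr1a1 were each lost without any 1 of 7 arrays, with adjusted p up to 0.139, 0.153, 0.158 and 0.134. Each was lost as well with no filter, with no intensity trend and with only the compared groups in the fit, Dhrs4 also with quantile normalization, and Akr1a1 also with centred arrays.

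Of the other aldehyde dehydrogenases none was called in T-Co against NT-Co. Aldh1a1, which makes retinoic acid from retinaldehyde, read 23078, 23088 and 23843 in NT-Co and 19487, 19981 and 13768 in T-Co. The groups did not overlap, and the difference of -0.41 ± 0.13 had an adjusted p of 0.0895 (0.0435 and -0.50 after quantile normalization, -0.24 and 0.175 without T-Co replicate 13). Aldh2, the mitochondrial enzyme that clears acetaldehyde, differed by -0.09 ± 0.13, with an interval of -0.38 to 0.19. Aldh8a1, an enzyme of tryptophan breakdown, differed by -0.33 ± 0.11 (0.0852) with its brighter probe set and by 0.12 ± 0.11 with the other.

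Aldh7a1 of lysine breakdown (-0.25 ± 0.13), Aldh4a1 of proline breakdown (-0.21 ± 0.19) and Aldh6a1 of valine breakdown (-0.17 ± 0.14) were not called. Nor were Aldh1l1, of folate metabolism (0.11 ± 0.09), Aldh16a1 (0.00 ± 0.19) and Aldh3b1 (0.34 ± 0.42). Aldh18a1, of proline synthesis, was near the filter, with mean intensities of 33.7 to 93.6 in its 3 tested probe sets, and these ran from -0.71 ± 0.78 to 0.46 ± 0.94 on the log2 scale.

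The remaining tested members were not called in any comparison. The aldehyde reductases Akr7a5, Akr1b8 and Akr1e1 differed by -0.19 ± 0.13, -0.07 ± 0.28 and -0.40 ± 0.22 in T-Co against NT-Co, and the mitochondrial Aldh1b1 by 0.10 ± 0.18. The short-chain enzymes Dhrs1 (-0.46 ± 0.20), Dhrs7 (-0.22 ± 0.20), Dhrs7b (0.16 ± 0.17) and Dhrs11 (-0.06 ± 0.20) passed in neither direction. Dim probe sets of Aldh1l1 (182 ± 33.5 in NT-Co, 0.66 ± 0.24, adjusted p = 0.123) and of Aldh2 in T-TSU against NT-Co (347 ± 119, 0.75 ± 0.22, 0.0838) differed more than the bright ones of the same genes. Of the 53 genes, 9 had no probe set above the filter: Akr1b10, Akr1c18, Akr1cl, Aldh1a2, Aldh1a3, Aldh3a1, Dhrs2, Rdh1 and Rdh12. They account for part of the 17 probe sets left untested.

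Array T-Co replicate 13 stood apart for several uncalled enzymes. It was also the T-Co array furthest from NT-Co for the called Adh4, Rdh9, Rdh16f2, Dhrs3, Dhrs4 and Aldh9a1, but nearest for Aldh1a7. Aldh3a2, which oxidises fatty aldehydes, read 511 in that array, against 2256 and 2340 in the other T-Co arrays and 2551 to 3216 in NT-Co and T-TSU. Its T-Co mean was 1702 ± 1032 and its NT-Co mean 2801 ± 284, and the log2 difference without that array was -0.28 ± 0.13 (adjusted p = 0.195 with it and 0.280 without). Rdh11, which reduces retinaldehyde, read 959 and 808 there with its 2 probe sets, against 108 to 415 in the other 8 arrays. Its brighter probe set differed by 0.24 ± 0.46 with replicate 13 and by -0.47 ± 0.26 without it, neither called. In T-Co against NT-Co, Aldh1a1 differed by -0.24 ± 0.09 without it, Akr1c6 by -0.31 ± 0.14, Akr1e1 by -0.16 ± 0.20 and Aldh7a1 by -0.10 ± 0.11. Aldh4a1 then differed by 0.00 ± 0.17, Dhrs7 by -0.07 ± 0.20, Aldh3b1 by 0.03 ± 0.45, and Rdh16 by 0.68 ± 0.26, none of them called with or without it. Without this array, 5 of the 62 probe sets were called in T-Co against NT-Co, 1 higher and 4 lower, in place of 10, while the share of all probe sets called went from 6.54% to 4.68%. The calls lost were those of Dhrs3 (-0.58 ± 0.18 without it), Dhrs4 (-0.48 ± 0.15), Aldh9a1 (-0.35 ± 0.10), Akr1a1 (-0.32 ± 0.09) and Rdh16f2 (0.76 ± 0.24).

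**Figure D3:**
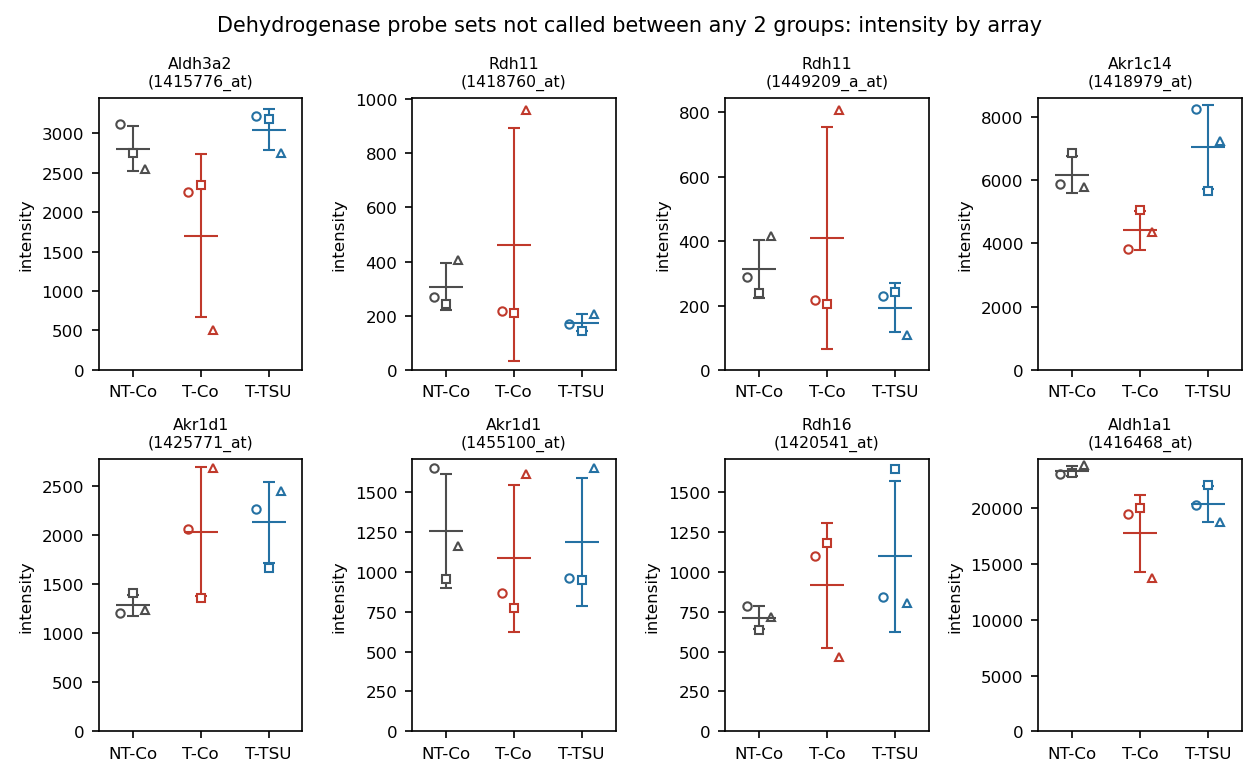
Intensity (linear scale from 0) by array of 8 probe sets that were not called between any 2 groups; open symbols are arrays, triangles in T-Co being replicate 13, lines group means and bars ± SD (n = 3). Replicate 13 of T-Co is the lowest array for Aldh3a2 and the highest for both probe sets of Rdh11.

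Comparing T-TSU with T-Co asks whether these enzymes differ with the drug in tumour-bearing mice. By limma none of the 62 probe sets was called, where 0.0505% of all probe sets tested were. An unadjusted p under 0.05 was found for 14 of the 62, against 1657 of all 15838. With the larger pseudocount, with a robust trend or without T-Co replicate 9, 1 was called, and 2 were called without T-TSU replicate 12. Groups did not overlap for 9 with T-TSU higher (6.75% of all probe sets) and for 4 with T-TSU lower (7.38% of all). The median log2 difference was 0.16, against -0.01 for all probe sets. T-Co enters this comparison and the one above with opposite signs, so the values are given side by side and not as a separate reversal.

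Akr1c20 came nearest to a call. Its brighter probe set differed by 0.77 ± 0.13 between T-TSU and T-Co (adjusted p = 0.0593, interval 0.50 to 1.04), and no T-TSU array overlapped with T-Co. It was the probe set called with the larger pseudocount (0.0489), with a robust trend (0.0477) and without T-Co replicate 9 (0.0490). The other probe set differed by 1.06 ± 0.29 (0.225). Akr1c14 differed by 0.67 ± 0.15 (0.159) and was called without T-TSU replicate 12 (0.82 ± 0.15, adjusted p = 0.0463), as was Rdh16f2 (-1.07 ± 0.17, 0.0347, against -0.77 ± 0.23 and 0.274 with all arrays). Dhrs4 differed by 0.58 ± 0.17 (0.274), and Aldh9a1 by 0.36 ± 0.12 (0.337). All 7 tested genes of the Akr1c and Akr1d group had differences above 0, as had 43 of the 62 probe sets and 7707 of all 15838. None of the 7 was called, and Akr1d1 (0.10 ± 0.22) and Akr1c21 (0.29 ± 0.41) differed by less than their SE.

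With all arrays and the settings as reported, no member was called with the drug. Dhrs3 differed by 0.00 ± 0.18 between T-TSU and T-Co, with an interval of -0.38 to 0.38. Rdh9 differed by 0.35 ± 0.17 (0.50, interval -0.02 to 0.71) and Adh4 by 0.48 ± 0.23 (0.499, interval -0.02 to 0.97). Aldh3a2 (1.12 ± 0.43) and Rdh11 (-1.01 ± 0.46) had the widest differences, and without T-Co replicate 13 these were 0.40 ± 0.13 and -0.31 ± 0.26, Adh4 was 0.28 ± 0.22 and Rdh9 0.53 ± 0.14, none called. Rdh5 (-0.37 ± 0.29) and Aldh3b1 (-0.35 ± 0.42) were not called.

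Comparing T-TSU with NT-Co sets treated tumour-bearing mice against mice without tumour. Adh4, Dhrs3 and Rdh9 were the 3 probe sets called. The 2 that fell are 3.23% of the 62, where 1.36% of all were called lower, and the 1 that rose is 1.61%, where 2.49% of all were called higher. Groups did not overlap for 13 with T-TSU lower (11.6% of all) and for 6 with T-TSU higher (12.7% of all). Rdh9 rose by 1.49 ± 0.17, 2.82-fold (adjusted p = 0.000697), and stayed called under every alternative and with any array left out. Adh4 fell by 1.06 ± 0.23 (0.0223), and the call was lost without any 1 of 4 arrays (up to 0.104) and with no intensity trend (0.0970). Dhrs3 fell by 0.71 ± 0.18 (0.0438), lost without any 1 of 5 arrays (up to 0.172) and with no intensity trend (0.127).

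Enzymes that had fallen in T-Co and were not called here included Akr1c20 (-0.12 ± 0.13, interval -0.39 to 0.15), Dhrs4 (-0.08 ± 0.17) and Aldh9a1 (-0.12 ± 0.12). Aldh1a7 differed by -0.31 ± 0.12 (0.228) and the called probe set of Akr1a1 by -0.35 ± 0.10 (0.0658). Aldh8a1 differed by -0.36 ± 0.11 (0.0940), Akr1d1 by 0.71 ± 0.22 (0.108), Rdh16 by 0.54 ± 0.34, Adh7 by 0.50 ± 0.32 and Rdh11 by -0.77 ± 0.46. The other probe sets of Aldh8a1, Akr1d1 and Adh7 differed by -0.04 ± 0.11, -0.10 ± 0.30 and 0.08 ± 0.39, and that of Rdh11 by -0.72 ± 0.46. Tested for any difference among the groups with limma's moderated F, 6 of the 62 probe sets were called, 9.68%, where 5.7% of all probe sets were. They belonged to Adh4, Akr1c14, Akr1c20, Dhrs3 and Rdh9.

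**Figure D4:**
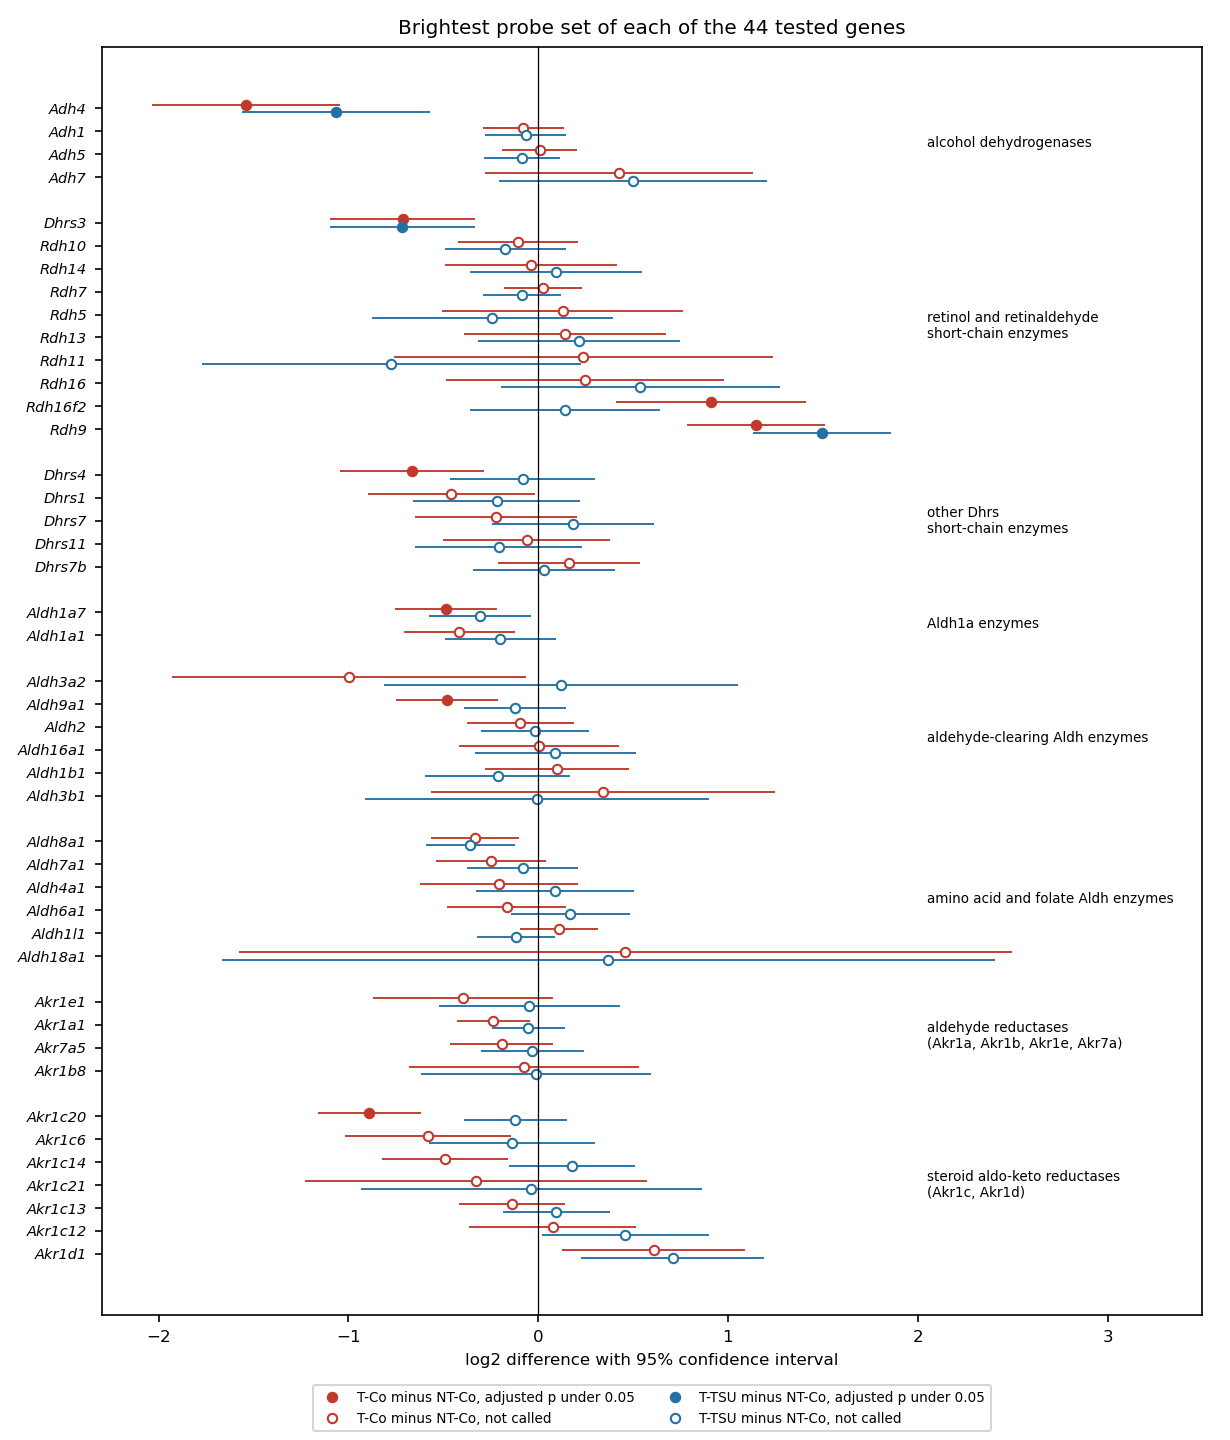
Log2 difference with its 95% confidence interval (horizontal axis) for the brightest probe set of each of the 44 tested genes, grouped by role; red is T-Co minus NT-Co, blue T-TSU minus NT-Co, and filled points have an adjusted p under 0.05. Both comparisons share the NT-Co arrays; Adh4, Dhrs3 and Rdh9 have filled points in both, and Akr1c20 in red only.

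Genes around these enzymes gave context. In T-Co against NT-Co, 4.16% of all probe sets tested were called higher and 2.38% lower, with a median of 0.01. Among 16 tested genes of retinoid storage, binding and signalling, 1 fell in T-Co (6.25%) and none rose. It was Ces1d, a carboxylesterase that can hydrolyse retinyl esters (-0.57 ± 0.14, adjusted p = 0.0265). Ces1d was higher in T-TSU than in T-Co (0.94 ± 0.14, 0.0453), a call that several alternatives lost, as given below. The plasma retinol carrier Rbp4 differed by 0.11 ± 0.09 and the retinoic acid hydroxylase Cyp26a1 by -0.30 ± 0.26 in T-Co. Lpl, Rarg and Dgat1 had the smallest p of the uncalled genes of these 16 in T-Co. Lpl read 820.8 ± 68.4 in NT-Co and 459.7 ± 279.8 in T-Co, without overlap (limma adjusted p = 0.0952). Rarg differed by 1.47 ± 0.57 (0.157) and Dgat1 by 0.38 ± 0.16 (0.176). Of the 16 differences, 8 were above 0 and 8 below 0. Among 18 tested enzymes of alcohol, acetate and carbonyl handling, 2 rose (11.1%) and 4 fell (22.2%) in T-Co, with a median of -0.12. The aldehyde oxidases Aox1 (-1.11 ± 0.23) and Aox3 (-1.24 ± 0.30), the glyoxalase Hagh (-0.83 ± 0.14) and Hsd17b11 (-0.58 ± 0.16) fell, and the carbonyl reductase Cbr1 (0.98 ± 0.24) and Hsd17b6 (0.66 ± 0.13) rose.

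Targets of NRF2, the factor that induces several aldehyde-reducing enzymes, had 1 of 20 higher (5%) and 7 lower (35%) in T-Co. Their median was -0.41. Gstm3 (-1.81 ± 0.26) and Gclc (-1.16 ± 0.18), of glutathione use and synthesis, fell, while Abcc3 rose (1.16 ± 0.19). Of the 20 targets, 5 had differences above 0 and 15 below 0. Nqo1 differed by -0.01 ± 0.30. Enzymes of androgen and progestin metabolism had 1 of 9 higher (11.1%) and 6 lower (66.7%), with a median of -1.27. Among them Hsd3b5 (-5.24 ± 0.69) and Hsd17b2 (-1.25 ± 0.18) fell, and Cyp17a1 rose by 3.45 ± 0.49. Around the bile acid steps of Akr1d1, 1 of 15 rose (6.67%) and 2 fell (13.3%). This list also holds Akr1d1, Akr1c6 and Akr1c14, which are family members described above. Hsd3b7 fell by 0.86 ± 0.17 and the racemase Amacr by 0.75 ± 0.16, while the oxysterol hydroxylase Cyp39a1 rose by 2.21 ± 0.46. In T-TSU against T-Co, Hsd3b2 (1.36 ± 0.19, 0.0453) was the other gene of these 5 lists that was called besides Ces1d. No probe set at all was called in that comparison with no filter, centred arrays, no intensity trend or only the compared groups. The same held without NT-Co replicate 8 or 11, or T-TSU replicate 2 or 14. Both calls were thus lost in each of these.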

How the data were processed

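Biotin-labelled cRNA was made from total liver RNA with a one-cycle kit for 3′ expression arrays, per the labels' protocols. The deposited values are linear intensities per probe set, which the authors had scaled: every array had a mean of about 500.3 after removal of 2% at each end, and array medians were 107.9 to 120.1. Which software summarised the probes was not given. From these, log2(intensity + 7.931) was computed, the pseudocount being the 10th percentile, so folds of dim genes are understated. Control probe sets (64) and the dimmest 30% were left out. Using limma 3.58.1 (R 4.3.3), group means were estimated over the 9 arrays together, with an intensity trend, two-sided tests and Benjamini-Hochberg adjustment over 15838 probe sets; intervals are 95%. The number of arrays limits the precision.

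The members and lists were chosen with earlier results of these data known. The brightest tested probe set stands for a gene. Named genes are those called, the 4 highest and 4 lowest differences per comparison, the brightest of each subfamily and of each Aldh family, and those whose probe sets differ by over 1. From the lists around them, called members and otherwise those with the smallest p were eligible; Rbp4 and Cyp26a1 were named after their values were seen, as were other members outside the rule. 2 family probe sets annotated to several genes were left out. All 53 genes matched the RefSeq gene table, with 0 symbols to update. The fit was tested on simulated data. Promoters come from RefSeq (GRCm38.p6).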

Additional observations from a re-analysis of the deposited data

How the results depend on the processing

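Counts of called dehydrogenase probe sets were 10 for T-Co against NT-Co, 0 for T-TSU against T-Co, 3 for T-TSU against NT-Co and 6 for any difference. They moved by over 1.5 times under some alternatives. The share of all probe sets called, given in brackets, moved as well: it was 6.54%, 0.0505%, 3.85% and 5.7% as reported. With no filter the T-Co against NT-Co count was 6 (3.92%), with no intensity trend 4 (3%), and with only the compared groups in the fit 6 (5.2%). The T-TSU against T-Co count was 1 with the pseudocount at 4 times its value (0.158%) and 1 with a robust trend (0.0884%). The T-TSU against NT-Co count was 1 with no intensity trend (1.67%), 7 with array weights (6.48%) and 5 with only the compared groups (5.52%). Array weights added the brighter probe sets of Akr1d1 and Aldh8a1 and the Akr1a1 probe set called in T-Co, among others. The count for any difference was 2 with no intensity trend (1.97%). With each array left out in turn, the counts ranged from 3 to 10, 0 to 2, 1 to 5 and 3 to 7, in the order given above, and the shares of all probe sets from 2.81% to 6.42%, 0% to 0.373%, 1.81% to 5.01% and 2.24% to 6.37%. For T-Co against NT-Co the lowest, 3, arose when NT-Co replicate 8 was left out, and 4 were called without replicate 10 or 11 of NT-Co. Of 13 called values, 4 held under every alternative and with any array left out: Adh4, Rdh9 and the brighter probe set of Akr1c20 in T-Co, and Rdh9 in T-TSU against NT-Co. No called difference changed sign. No paired analysis was possible because the groups share at most 1 replicate number. Having 3 arrays a group limits what can be called, and signal near the filter limits Adh7, Aldh18a1 and Akr1b8.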
